A study of Mus musculus with 12 samples.

Results

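Mitochondrial ribosomal protein genes were followed in renal tubular epithelial cells (TECs) and blood neutrophils (PMNs) of mice after renal ischemia-reperfusion injury (IRI) with and without glutamine. Members were all genes of both deposited tables whose symbol is Mrpl or Mrps, a number and at most 1 further letter. This gave 78 of 50421 genes, 49 with a large-subunit symbol (Mrpl) and 29 with a small-subunit symbol (Mrps), spread over 17 chromosomes of the mouse genome. The mice were wild type and male, of the C57BL/6J strain and 8 to 12 weeks old, and no genetic change was made in any group. In all of them the renal pedicles were clamped for a time, so that every group here had IRI and no uninjured group is part of these data. They then received glutamine (given as a dipeptide with alanine) or vehicle (saline), and cells were taken 24 hours after IRI. TECs were sorted from kidney as CD45- Prominin-1+ cells, and neutrophils came from blood. Each group held 3 libraries, vehicle replicates 3, 4 and 5 and glutamine replicates 1, 2 and 3 in TECs, and replicates 1, 2 and 3 of either group in PMNs. The PMN numbers only name the libraries in the order of their deposit, since the labels give none, and they pair nothing. The labels do not say more on how the samples were separated, so p-values measure only the spread between these libraries.

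The mitochondrial ribosome translates the few mRNAs of the mitochondrial genome, all of which encode membrane subunits of the respiratory chain and the ATP synthase. Its proteins are encoded in the nucleus, made in the cytosol and imported, and they join ribosomal RNAs of the organelle into a small subunit that reads the mRNA and a large subunit that forms the peptide bond. Proximal tubules are among the cells richest in mitochondria, whereas mature neutrophils rely largely on glycolysis.

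Promoter sequences are shown because 3 short strings, which the choice by symbol did not use, were found in a larger share of the members' windows than of all windows. The difference was not tested, and only 47 of the members' 75 windows held any of them. RefSeq windows from 250 bases before to 50 bases after the start site (GRCm38.p6) matched 69 of the 78 members in 75 windows. The letters CCGGAAG, the core of ETS factor sites such as that of GABP, were found on either strand in 34.7% of the members' windows and in 8.86% of all 32851 windows. TGCGCA, part of the palindrome of NRF1, was found in 29.3% against 7.76%, and ATGGCGG, the core of YY1 sites, in 17.3% against 4.05%. GABP, NRF1 and YY1 are known activators of nuclear genes for mitochondrial proteins. At least 1 of the 3 strings was found in 62.7% of the members' windows and in 18.1% of all windows, and in 23.9% of 18162 windows with a GC content like that of the members. Large-subunit windows (48 for 43 genes) held one of them in 54.2% and small-subunit windows (27 for 26 genes) in 77.8% of cases. These are matches of letters, not binding sites. The bases just before the start site are given for 3 members, with matches to these strings in capitals. Mrpl34 was lower in every glutamine-treated TEC library, and Mrpl48 was higher in every one. Mrpl52 had the second highest mean per length over all libraries of either cell type, a place that lay within the spread of the libraries. The stretch of Mrpl34 is chr8:71464776-71464925 on the plus strand, that of Mrpl48 is chr7:100608302-100608451 on the minus strand and that of Mrpl52 is chr14:54426759-54426908 on the plus strand.
Mrpl34: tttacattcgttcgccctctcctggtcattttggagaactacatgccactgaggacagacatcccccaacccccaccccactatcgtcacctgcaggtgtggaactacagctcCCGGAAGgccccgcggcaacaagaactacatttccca
Mrpl48: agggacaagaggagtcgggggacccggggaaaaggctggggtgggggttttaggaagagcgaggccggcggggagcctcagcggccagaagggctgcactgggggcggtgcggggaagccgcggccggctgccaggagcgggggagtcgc
Mrpl52: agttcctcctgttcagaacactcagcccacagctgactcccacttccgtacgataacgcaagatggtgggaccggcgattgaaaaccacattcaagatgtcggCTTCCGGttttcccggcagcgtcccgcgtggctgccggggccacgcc
The Mrpl34 stretch holds CCGGAAG and the Mrpl52 stretch its reverse complement, while none of the 3 strings is in the Mrpl48 stretch. Mrpl48 has 4 windows, for as many start sites, and 1 of the others, chr7:100583081-100583380, does hold CCGGAAG on either strand, so this member does not lack the string. Of the members lower in every glutamine-treated TEC library, 15 had a window, and 73.3% of these windows held at least 1 string, against 60.0% of the other members' 60 windows. Those 60 windows belong to 54 genes, so genes with several windows, such as Mrpl48, count more than once.

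The libraries differed in depth and make-up. TEC libraries held between 5397371 counts (glutamine replicate 2) and 10223463 counts, and PMN libraries between 20226512 and 21879769. The sort markers were as the TEC label says, with Prom1 between 64.4 and 83.2 CPM (counts relative to library size) and Ptprc, which encodes CD45, between 0.102 and 2.73 CPM. Markers of other cells were present in TECs too, with the endothelial genes Pecam1 at 68.3 to 115 CPM and Cdh5 at 42.1 to 121 CPM, and 4 hemoglobin genes that summed to 800 to 4380 CPM in the vehicle libraries and 966 to 6680 CPM in the treated ones. The 10 neutrophil markers summed to 100 to 222 CPM in the vehicle TEC libraries and 117 to 232 CPM in the treated ones. Cxcr2 (37.7 to 87.7 CPM), S100a8 (6.8 to 106 CPM) and S100a9 (3.96 to 66.8 CPM) held most of this. Ly6g and Csf3r were at most at 1.8 and 1.56 CPM. In PMNs 8 of the 10 neutrophil markers passed the expression filter, and all 10 summed to 25300 to 45700 CPM after vehicle and 19500 to 60000 CPM after glutamine. Among them S100a8 ranged from 6470 to 28500 CPM, yet the macrophage genes C1qa (282 to 2520 CPM) and C1qb (576 to 3330 CPM) were also high. Single PMN libraries carried kidney or vessel genes, with Umod at 1010 CPM in vehicle replicate 1 and the endothelial gene Cdh5 at 219 CPM in vehicle replicate 2. Counts on predicted, Rik and sensory receptor genes took 17.4%, 20.8% and 23.3% of the vehicle TEC libraries and 27.8%, 26.3% and 30.8% of the glutamine-treated ones, so this share moved with treatment. The kidney injury gene Havcr1 had 790, 539 and 106 CPM after vehicle and 93.7, 49.2 and 26.1 CPM after glutamine.

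In TECs the members as a whole took a smaller share of the counts with glutamine. Their summed share was 0.454%, 0.413% and 0.34% in the vehicle libraries and 0.31%, 0.305% and 0.307% in the glutamine-treated libraries. The groups did not overlap, and vehicle replicate 5 was the vehicle library closest to the treated ones. The means were 0.402 ± 0.0577% with vehicle and 0.307 ± 0.00252% with glutamine (SD, n = 3), a log2 ratio of -0.39. When only counts outside predicted, Rik and receptor genes formed the total, the log2 ratio was -0.24 and the groups almost touched, at 0.4437% to 0.5499% with vehicle and 0.4139% to 0.4436% with glutamine. Some markers of cell types and segments moved with treatment as well. Among the tubular markers Havcr1 was lower in every treated library (log2 fold change -3.08), and DESeq2 called it (adjusted p 0.0322). Slc12a3 had a log2 fold change of 0.89 (unadjusted edgeR p 0.0367), with groups that overlapped. Slc12a1, the transporter of the thick ascending limb, was at 38.1, 44.8 and 37.9 CPM after vehicle and 52.8, 142 and 104 CPM after glutamine, and DESeq2 called it (adjusted p 0.00978). Pax8 was lower in every treated library (88.5 to 104 against 55.4 to 76.7 CPM), and Lyz2 (1.12 to 2.56 against 3.93 to 12.4 CPM) and Ptprc (0.102 to 1.52 against 1.80 to 2.73 CPM) were higher in every one. So were the proliferation genes Mki67 (0.406 to 0.885 against 1.56 to 2.80 CPM) and Top2a (0.179 to 0.885 against 1.32 to 3.28 CPM). The 14 tubular markers together summed to 5690 to 9060 and 6410 to 7970 CPM, and the 7 monocyte and macrophage markers to 28.3 to 52.3 and 30.9 to 71.4 CPM. The part of these markers, and of predicted, Rik and receptor genes, in the members' difference was not tested. In bulk libraries of sorted cells, fewer cells of a type and less RNA per cell cannot be told apart.

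**Figure D1:**
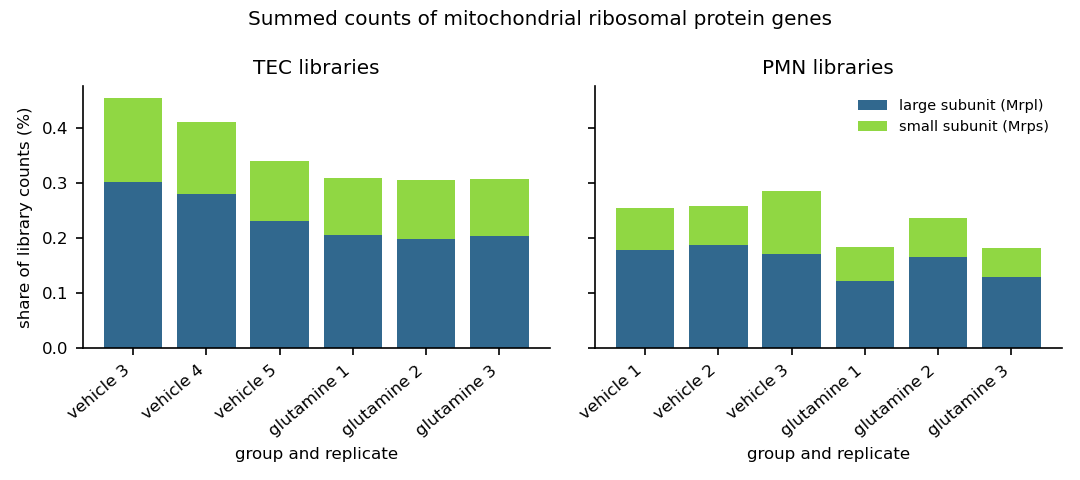
Summed counts of the 78 mitochondrial ribosomal protein genes as percent of all counts of each library, split into large-subunit (Mrpl, blue) and small-subunit (Mrps, green) genes, for 6 TEC and 6 PMN libraries. The 3 glutamine-treated libraries of either cell type sit below the 3 vehicle libraries.

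Both subunits had smaller shares of the total counts with glutamine, but on the TMM scale only the large-subunit sums kept the groups apart. Those sums were 2330 to 2760 CPM after vehicle and 2140 to 2150 CPM after glutamine, whereas the small-subunit sums, at 1110 to 1370 and 1080 to 1160 CPM, overlapped. Large-subunit genes made up 0.272 ± 0.0369% of TEC counts after vehicle and 0.202 ± 0.00404% after glutamine. Small-subunit genes made up 0.131 ± 0.0205% and 0.105 ± 0.00173% (SD, n = 3). The ratio of large-subunit to small-subunit counts was 2.01, 2.14 and 2.11 in the vehicle libraries and 1.99, 1.85 and 1.95 in the glutamine-treated libraries. The lowest vehicle library and the highest treated library differed by less than the spread within either group, although the groups did not overlap. The symbols do not fully match the subunits, since Mrps18a and Mrps30 are placed in the large subunit by structural work and Mrps36 is now regarded as a subunit of the oxoglutarate dehydrogenase complex. With Mrps18a and Mrps30 counted as large and Mrps36 left out, the mean log2 ratio was 0.10 lower with glutamine, against 0.11 lower by symbol.

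The test asked which single members differed between glutamine and vehicle. All 78 members passed the expression filter in TECs among 14734 genes tested by edgeR's quasi-likelihood test. No member and no other gene had a Benjamini-Hochberg adjusted p below 0.05 (0.0% of all genes in either direction). The smallest adjusted p among the members was 0.216, and limma-voom called no gene either, while DESeq2 called 1 member, Mrpl50, lower and none higher, against 0.495% and 1.59% of all genes. At an unadjusted p below 0.05, 13 members (16.7%) were lower and 1 was higher, against 5.51% and 7.23% of all genes tested. Every glutamine-treated library was below every vehicle library for 16 members, and above for 1, against 9.81% and 9.0% of all genes. The log2 fold change was below 0 for 62 of 78 members (79.5%) and above 0 for 16, against 49.4% and 50.6% of all genes. The count of lower members at an unadjusted p below 0.05 changed when a library was left out, which also leaves fewer libraries to test. It was 4, 6 and 18 without vehicle replicates 3, 4 and 5, and 9, 8 and 15 without glutamine replicates 1, 2 and 3. The members below 0 numbered 59 to 63 in these fits, with a median log2 fold change between -0.39 and -0.23.

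The median log2 fold change was -0.32 over the 49 large-subunit genes, of which 41 were below 0, and -0.20 over the 29 small-subunit genes, of which 21 were below 0. Over all genes tested it was 0.01. When a library was left out the medians ran from -0.47 (without vehicle replicate 5) to -0.24 (without vehicle replicate 3) and from -0.27 (without vehicle replicate 4) to -0.13 (without vehicle replicate 3 or glutamine replicate 1), and they were closest, at -0.30 and -0.25, without glutamine replicate 2. Of the 13 members lower at an unadjusted p below 0.05, 11 were large-subunit and 2 small-subunit genes, and of the 16 without overlap 12 were large-subunit and 4 small-subunit genes. Set against 5.51% and 9.81% of all genes, the small-subunit counts of 2 and 4 among 29 genes are near the background. Grouped by evolutionary origin, with Mrps30 among the large-subunit genes and Mrps18a, Mrps18b and Mrps36 left out, the median was -0.30 over 29 large-subunit genes with a bacterial counterpart and -0.32 over 21 mitochondria-specific ones. It was -0.30 over 16 bacterial-type and -0.20 over 9 mitochondria-specific small-subunit genes. Grouped by place in the ribosome, 6 of 7 genes around the exit of the nascent polypeptide were below 0, with a median of -0.47, and 4 of 5 genes of the central protuberance, with a median of -0.40. Of the stalk that recruits translation factors, Mrpl10 was at -0.50 (SE 0.29), Mrpl11 at 0.13 (SE 0.23) and Mrpl12 at 0.12 (SE 0.22). When a library was left out they ran from -0.72 to -0.29, from -0.02 to 0.23 and from -0.05 to 0.23, so Mrpl11 and Mrpl12 have no settled sign.

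**Figure D2:**
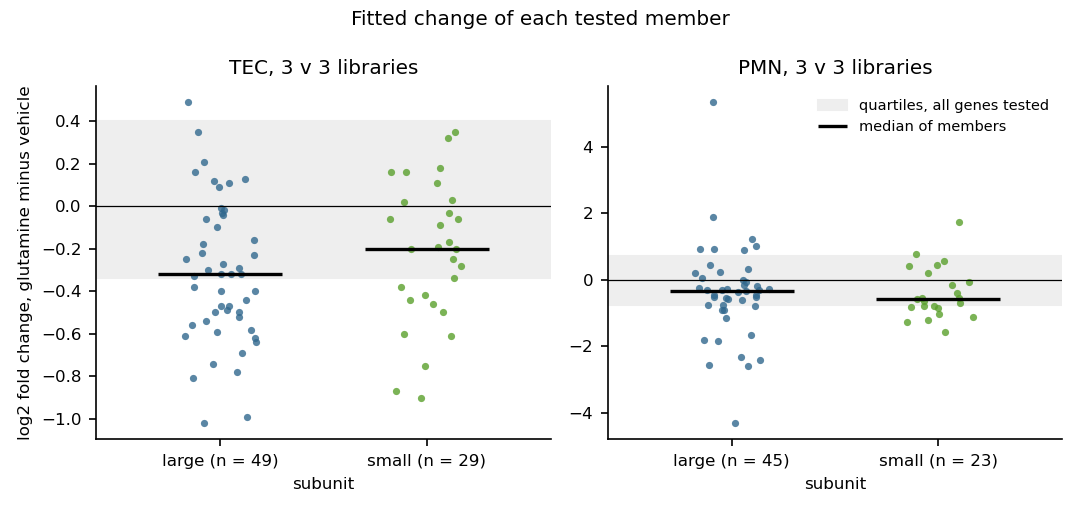
Log2 fold change (glutamine minus vehicle) of each tested member in TECs and PMNs by subunit, points jittered sideways, with the members' median (bar) and the quartiles of all genes tested (grey band). The vertical scales differ: TEC members lie between -1.02 and 0.49, PMN members between -4.30 and 5.34.

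Mrpl50, a large-subunit protein with no bacterial counterpart (chromosome 4, 49512596 to 49521093 on the minus strand, GRCm38), had 61.2, 56.7 and 50.0 CPM after vehicle and 32.3, 18.6 and 32.9 CPM after glutamine. All treated libraries were below all vehicle libraries. Its log2 fold change was -0.99 (SE 0.26), with an unadjusted edgeR p of 0.00271 and an adjusted p of 0.216. DESeq2 gave an adjusted p of 0.0341, and edgeR without an expression filter 0.0202; over all alternatives the range was 0.0202 to 0.508. Mrpl33, the most abundant member per length over the 6 TEC libraries, had 172, 158 and 122 CPM after vehicle and 102, 95.9 and 95.3 CPM after glutamine. Its groups did not overlap either, and the log2 fold change was -0.62 (SE 0.20, adjusted p = 0.255). Mrpl34 (chromosome 8, 71464959 to 71465747 on the plus strand) had 51.3, 46.3 and 30.6 CPM against 21.3, 24.8 and 28.6 CPM. Here vehicle replicate 5 nearly met the treated libraries, and the log2 fold change was -0.78 (SE 0.26, adjusted p = 0.267).

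Around the exit of the tunnel through which the new chain leaves the large subunit, 3 of the 7 members there were lower in every treated library, against 9.81% of all genes. Mrpl22 lines that tunnel and had 19.6, 20.7 and 16.2 CPM after vehicle and 10.9, 10.6 and 12.2 CPM after glutamine, a log2 fold change of -0.74. Mrpl47 had 51.0, 42.7 and 40.3 CPM against 29.6, 30.4 and 28.8 CPM (-0.59). Mrpl44 had 21.2, 21.9 and 21.1 CPM against 14.7, 13 and 15.1 CPM (-0.58). In all 3 the treated libraries lay close together and well below the vehicle libraries, with adjusted p-values of 0.306, 0.296 and 0.372 from edgeR. The other members there overlapped, with Mrpl23 highest at a log2 fold change of 0.35, a value made uncertain by a processed copy of the gene described below. Summed over all 7, the groups overlapped too, at 141 to 194 CPM after vehicle and 116 to 169 CPM after glutamine.

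Mrpl32, whose protein is matured in mitochondria by the m-AAA protease, had 25.7, 32.0 and 23.6 CPM after vehicle and 17.7, 18.8 and 15.7 CPM after glutamine. Mrpl21 had 57.1, 30.9 and 33.3 CPM against 23.5, 25.6 and 20.2 CPM, so that vehicle replicate 3 carried much of its difference. Both were without overlap, at log2 fold changes of -0.64 and -0.81, the latter -0.48 without vehicle replicate 3. Mrpl36 had the lowest log2 fold change of all members (-1.02, SE 0.43), which was -0.46 without vehicle replicate 3 and -1.33 without vehicle replicate 5, but vehicle replicate 5 (9.65 CPM) lay below glutamine replicate 1 (11.3 CPM), and the other vehicle libraries were at 30.1 and 14.8 CPM. Mrpl51 had 197, 164 and 142 CPM against 145, 107 and 105 CPM, groups that overlapped by glutamine replicate 1. In the small subunit Mrps11 had 18.1, 18 and 9.04 CPM against 7.90, 6.60 and 10.1 CPM (-0.87, SE 0.36), with vehicle replicate 5 among the treated libraries. Mrps31, the small-subunit member with the lowest log2 fold change (-0.90, SE 0.46), was below 10 CPM in every library, at 6.19, 8.48 and 8.22 against 2.27, 4.40 and 5.57 CPM, with no overlap and an unadjusted edgeR p of 0.0734.

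**Figure D3:**
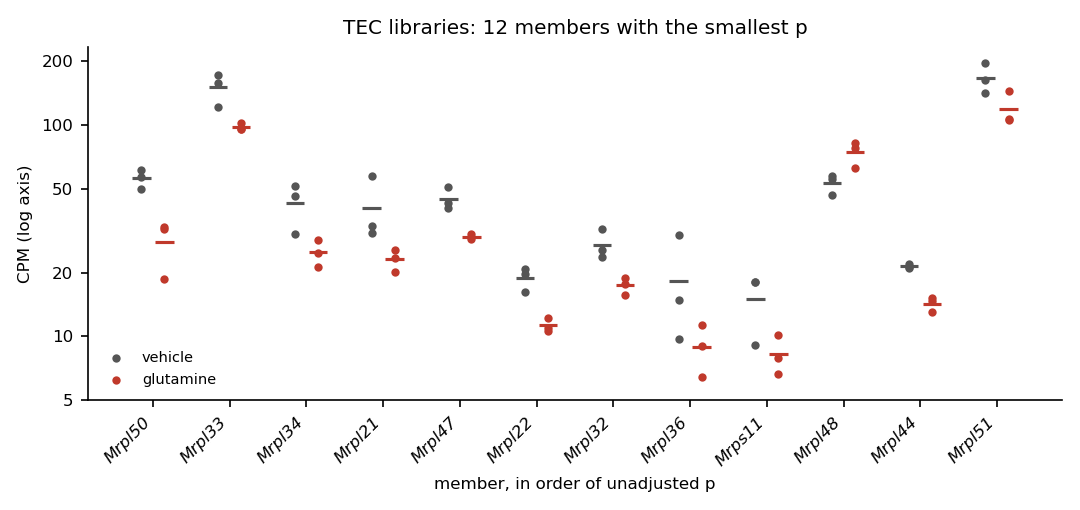
CPM in each TEC library (log axis) of the 12 members with the smallest unadjusted p, vehicle in grey and glutamine in red, bars at the group means. In 8 of the 12 every treated library is below every vehicle library, in Mrpl48 every one is above, and Mrpl36, Mrps11 and Mrpl51 overlap.

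Mrpl48, a protein of the central protuberance, went the other way. It had 55.2, 46.8 and 57.1 CPM after vehicle and 77.9, 62.8 and 82.1 CPM after glutamine, and all treated libraries were above all vehicle libraries. The log2 fold change was 0.49 (SE 0.21), with an unadjusted edgeR p of 0.0394 and an adjusted p of 0.368, and lay between 0.40 and 0.59 when any library was left out. The next highest large-subunit value was that of Mrpl23 (0.35, SE 0.47), at only 3.12 to 10.3 CPM, and it ran from 0.01 to 0.85 when a library was left out. A processed copy listed as Mrpl23-ps1 held 465, 467 and 308 counts with vehicle and 214, 121 and 235 counts with glutamine, not scaled to library size. Mrpl23 itself held fewer in every library, at 61, 35 and 101 against 66, 33 and 92 counts. Reads of Mrpl23 may have been split between these rows, so its value and its sign are uncertain. In the small subunit the highest values were those of Mrps15 (0.35) and Mrps6 (0.32), and both overlapped. Mrps15 was at 0.15 without glutamine replicate 2 and at 0.62 without glutamine replicate 3. Mrps6 ranged from 51.0 to 157 CPM over the libraries. It shares exonic or intronic span on the same strand with Slc5a3, a gene of an osmolyte transporter, so that its counts are uncertain too.

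Mrps11 and Mrpl46 start 42 bases apart and are read in opposite directions from chromosome 7. In the annotation used for positions their spans overlap by 413 bases on opposite strands. The strand of the libraries is not given, so reads of the pair may be mixed. Their values in TECs were unlike, with Mrpl46 at 32.2, 26.8 and 22.6 CPM after vehicle and 15.8, 34.4 and 30 CPM after glutamine, a log2 fold change of -0.03 (SE 0.31, from -0.25 to 0.24 when a library was left out) against -0.87 for Mrps11.

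Levels between members were compared per kilobase of transcript model. In TECs Mrpl33 was highest (260 CPM per kilobase, mean of 6 libraries), then Mrpl52 (247) and Mrpl20 (201). Over the libraries Mrpl33 ranged from 199 to 359, Mrpl52 from 188 to 293 and Mrpl20 from 157 to 236 CPM per kilobase, so these neighbours did not differ beyond their spread. In the treated libraries alone Mrpl33 was at 214, 201 and 199 and Mrpl52 at 277, 188 and 219 CPM per kilobase. The lowest were Mrpl1 (2.57), Mrps18b (2.67) and Mrpl3 (3.86 CPM per kilobase), with Mrps31 next at 3.87. Their libraries ranged from 1.05 to 4.06, 0.94 to 5.18, 2.8 to 5.23 and 1.5 to 5.6, so these did not differ beyond their spread. In PMNs the same 3 genes had the highest means, Mrpl33 at 364, Mrpl52 at 152 and Mrpl20 at 149 CPM per kilobase. Their libraries ranged from 151 to 484, 92.2 to 254 and 44.6 to 240, and Mrps18c (mean 129) ranged from 23.4 to 235, so the order below Mrpl33 lay within the spread. Of the 10 highest members 7 were shared between the cell types. The transcript model of Mrpl33 is short (478 bases, against a median of 1224.5 over members), which makes a value per length depend strongly on the model used.

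The Mrps18 paralogues were in the order Mrps18c, Mrps18a, Mrps18b per kilobase in all 6 TEC libraries. Mrps18c had 92.8 ± 22.8 CPM after vehicle and 65.6 ± 5.54 CPM after glutamine, Mrps18a 56.5 ± 12.9 and 54.2 ± 3.77 CPM, and Mrps18b 2.69 ± 2.02 and 2.32 ± 1.49 CPM (SD, n = 3). Mrps18c was at 114, 95.4 and 68.7 CPM against 62.4, 62.4 and 72.0 CPM, with an unadjusted edgeR p of 0.0526. Mrps18b was near the limit of detection in TECs, between 0.885 and 4.87 CPM, but reached 33.5, 55.0 and 54.0 CPM in 3 PMN libraries and 0 in the other 3. Mrps30 (42.0 ± 5.72 and 36.6 ± 4.19 CPM) and Mrps36 (29.3 ± 2.87 and 28.2 ± 5.56 CPM) were at similar levels with vehicle and glutamine in TECs.

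Other genes of the mitochondrial translation machinery did not all go with the members in TECs. Of 11 tested translation factors, 5 were below 0, and 3 of these had an unadjusted edgeR p below 0.05, against 49.4% and 5.51% of all genes tested, shares that also stand beside the lists that follow. Tsfm, the elongation factor that recharges its partner Tufm, had 12.2, 14.8 and 13.8 CPM after vehicle and 5.27, 4.40 and 6.34 CPM after glutamine (log2 fold change -1.34, SE 0.33). Mtfmt, which formylates the initiator tRNA, had 12, 14.2 and 13.2 CPM against 6.94, 4.20 and 6.77 CPM (-1.12, SE 0.34). Both were without overlap, with edgeR adjusted p-values of 0.21 and 0.243. DESeq2 called Tsfm (adjusted p 0.0322) and not Mtfmt, and Tufm itself was at a log2 fold change of 0.32.

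Of 17 mitochondrial tRNA synthetases, 11 were below 0 and 4 had an unadjusted p below 0.05, all lower (5.51% of all genes), among them Iars2, the isoleucyl-tRNA synthetase (-0.74, SE 0.26). The 3 genes of the glutamyl-tRNA amidotransferase, which makes glutaminyl-tRNA in mitochondria, were all above 0 (Qrsl1 0.65, Gatb 0.36, Gatc 0.14), and none had an unadjusted p below 0.05. Of 25 assembly factors 15 were below 0, with Mterf3 (0.59, SE 0.24) and Ngrn (-1.15, SE 0.48) the only ones at an unadjusted p below 0.05. The 5 ribosomal subunits without an Mrp symbol that the tables hold, led by Chchd1 (-0.30, SE 0.29) and Gadd45gip1 (-0.20, SE 0.24), had a median of -0.08. Of 13 genes of mitochondrial DNA transcription and RNA handling 7 were below 0, with Ssbp1, the protein that coats single-stranded mitochondrial DNA, at -0.90 (SE 0.30). Of 9 regulators of nuclear mitochondrial genes 3 were below 0, led by Myc (-0.72, SE 0.32) and Ppargc1a (-0.50, SE 0.38). Of 81 tested cytosolic ribosomal protein genes 78 were below 0, with a median of -0.26, against 49.4% of all genes, and 47 were lower without overlap, against 9.81% of all genes. They took 5.30 ± 0.299% of counts after vehicle and 3.95 ± 0.04% after glutamine (SD, n = 3). Genes encoded in the mitochondrial genome were not analysed here.

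In PMNs the members also took a smaller share of counts with glutamine. Their summed share was 0.256%, 0.259% and 0.285% in the vehicle libraries and 0.185%, 0.237% and 0.182% in the glutamine-treated ones, again without overlap, and the log2 ratio of the means was -0.41. Large-subunit genes made up 0.179 ± 0.00808% with vehicle and 0.139 ± 0.0236% with glutamine, and small-subunit genes 0.0872 ± 0.0226% and 0.0621 ± 0.00952% (SD, n = 3). The small-subunit shares overlapped, with vehicle replicate 2 at 0.0708% and glutamine replicate 2 at 0.0712%. The ratio of large to small was 2.29, 2.66 and 1.52 against 1.94, 2.33 and 2.48, so that the groups overlapped. The 7 monocyte and macrophage markers summed to between 5230 and 9100 CPM in the vehicle libraries and between 5360 and 11100 CPM in the treated ones. The 14 tubular markers summed to 857 to 2800 and 1320 to 2130 CPM, mostly through Lcn2 (797 to 1370 and 1280 to 1990 CPM), which neutrophils also express. Umod, Slc12a3, Pax8 and Epcam were highest by far in vehicle replicate 1, at 1010, 190, 114 and 47.6 CPM. The 4 endothelial markers summed to 2.66 to 1410 and 4.29 to 58.0 CPM, with Kdr at 0 in all libraries but vehicle replicate 2. Among them Cdh5 was lower in every treated library, at 16.4, 219 and 1.91 CPM after vehicle and 0.674, 0 and 0.0983 CPM after glutamine. DESeq2 called it (adjusted p 0.000337) and edgeR did not (unadjusted p 0.0188). It passed the expression filter only through the vehicle group, where vehicle replicate 2 was highest by far. Ptprc, which all leukocytes express, was at 554, 310 and 558 CPM after vehicle and 742, 801 and 1130 CPM after glutamine, higher in every treated library (log2 fold change 0.91, SE 0.33). The part of these markers in the members' share was not tested; the log2 ratio of the share was -0.44 without vehicle replicate 1 and -0.43 without vehicle replicate 2.

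Of the 78 members 68 were tested in PMNs (45 large and 23 small) among 10134 genes, and 10 failed the expression filter. By edgeR's quasi-likelihood test no member and no other gene had an adjusted p below 0.05 (0.0% in either direction), nor by limma-voom. At an unadjusted p below 0.05 no member was lower and 1, Mrpl9, was higher, against 1.42% and 2.06% of all genes tested. DESeq2 called Mrpl9 higher and no member lower, against 1.3% and 1.06% of all genes. For 6 members every treated library was below every vehicle library, and for 2 above, against 4.64% and 5.86% of all genes. The log2 fold change was below 0 for 50 of the 68 tested members (73.5%), against 50.0% of all genes, with a median of -0.34 over large-subunit and -0.58 over small-subunit genes. Without glutamine replicate 1 it was below 0 for 44 of 73 members (60.3%), against 52.4% of all genes. When a library was left out the large-subunit median ran from -0.51 (without glutamine replicate 3) to -0.25 (without glutamine replicate 1) and the small-subunit median from -0.58 to -0.17 (without vehicle replicate 3), so the order of the subunits is not fixed. Members that passed the filter only through their higher group are among these, so the count describes the tested members only.

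Mrpl9 (chromosome 3, 94443318 to 94451130 on the plus strand) had 0.344, 0.447 and 1.77 CPM after vehicle and 50.4, 26.6 and 27.8 CPM after glutamine. This was 7, 10 and 38 counts against 972, 577 and 566 counts. The groups did not overlap, with a log2 fold change of 5.34 (SE 1.6, unadjusted p = 0.0128) and adjusted p-values of 0.911 from edgeR and 0.000266 from DESeq2. The gene passed the expression filter only through the glutamine group, where it is high. In TECs the same gene was at 15.4, 8.66 and 11.1 CPM after vehicle and 7.18, 8.81 and 8.19 CPM after glutamine, values that overlapped. Mrpl41 was the other member higher in every treated PMN library, at 1.23, 12.4 and 11.2 against 36.1, 40.7 and 15.6 CPM (1.90, SE 1.42). Lowest among large-subunit members were Mrpl38 (96.9, 0 and 21.5 against 0.0518, 1.75 and 4.18 CPM) and Mrpl58, a peptidyl-tRNA hydrolase built into the ribosome (65.0, 60.3 and 13.8 against 0, 11.9 and 11 CPM). Mrpl38 (-4.30, and -2.48 without vehicle replicate 1) overlapped because vehicle replicate 2 held no count, and Mrpl58 did not overlap. In the small subunit Mrps21 was lowest (42.2, 53.6 and 89.6 against 23.7, 15 and 24.3 CPM, without overlap), followed by Mrps26 (-1.27, SE 1.30), which ran from -2.03 to -0.74 when a library was left out (glutamine replicates 2 and 1). Mrps36 (1.74, SE 2.05) and Mrps11 (0.78, SE 2.10) were the highest there, and both overlapped. They ran from 1.12 to 2.44 and from 0.15 to 1.48, lowest without vehicle replicate 1 and highest without vehicle replicate 2. None of these had an edgeR adjusted p below 0.911.

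Many members were plainly present in some PMN libraries and missing in others. Of the 68 tested members 34 (50.0%) were at 10 CPM or more in 1 library and under 1 CPM in another of the 6, which no member was in TECs. This was not particular to them, since 41.8% of all tested PMN genes, and 63.5% of those at a similar mean level, did the same. Under 1 CPM were 19, 12 and 13 of all 78 members in the vehicle libraries and 29, 10 and 11 in the glutamine-treated libraries, so that glutamine replicate 1 lacked most. Of all tested genes 27.5%, 19.4% and 21.6% were under 1 CPM in the vehicle libraries and 27.3%, 17.3% and 19.2% in the treated ones. The member counts include members that failed the expression filter, so the 2 sets are not fully alike. The median coefficient of variation within groups was 0.721 in PMNs and 0.184 in TECs. Mrpl44, for example, had 426 counts in glutamine replicate 2 and 0 in the other 5 libraries. Mrpl49 had 641 counts in vehicle replicate 2, 562 in glutamine replicate 2 and 0 elsewhere, and Mrps5 had 577 and 443 counts in vehicle replicate 3 and glutamine replicate 3 and 0 elsewhere. These examples were chosen after their values were seen. The lowest members per length in PMNs were Mrps2 (0.12 CPM per kilobase), Mrpl47 (0.879) and Mrps5 (1.81). Only 22 members reached 10 CPM in all 6 PMN libraries, against 68 in all 6 TEC libraries.

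**Figure D4:**
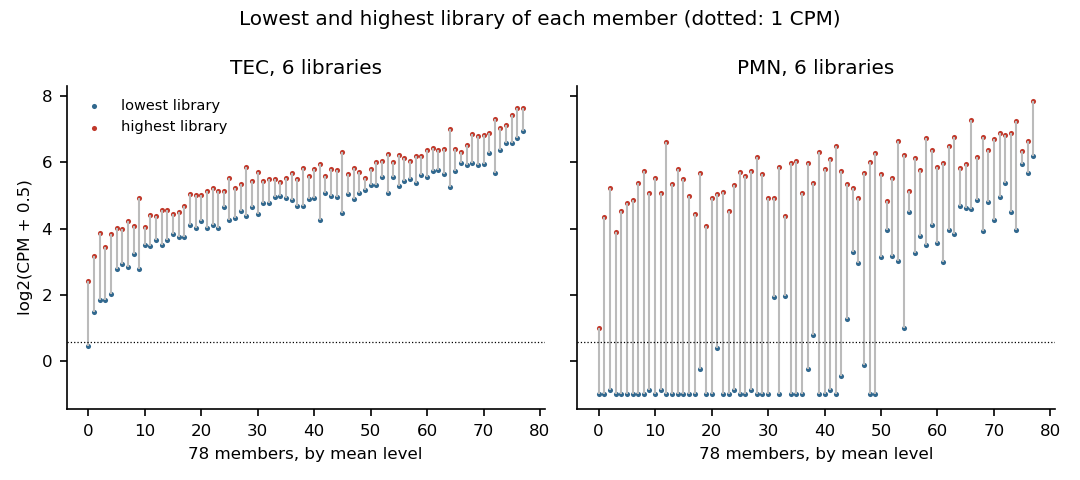
Lowest (blue) and highest (red) of the 6 libraries for each of the 78 members, as log2(CPM + 0.5), ordered by mean level in each cell type; the dotted line marks 1 CPM. In TECs the range is narrow, while in PMNs 33 members had no count in at least 1 library and exceeded 1 CPM in another.

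The lists fixed for the pathway gave little in PMNs, where no gene of them reached an adjusted p below 0.05. In all genes tested 50.0% were below 0, the share to read the counts of this paragraph against. Of 17 tested assembly factors 10 were below 0, with Ddx28 at 9.15, 59.1 and 92.6 CPM after vehicle and 141, 146 and 171 CPM after glutamine, the smallest p of the list. Of 9 translation factors 3 and of 7 tRNA synthetases 5 were below 0. Lars2, the leucyl-tRNA synthetase, was by far the highest of these, at 1230, 652 and 928 against 1580, 1070 and 2070 CPM. Of 9 genes of mitochondrial DNA transcription and RNA handling 6 were below 0, and Ssbp1 was lower in every treated library, as in TECs (82.4, 82.4 and 73.1 against 18, 60.8 and 40.5 CPM). Of 81 cytosolic ribosomal protein genes 65 were below 0, with a median of -0.28.

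Between cell types, whose libraries share no control, 41 of the 68 members tested in both had a log2 fold change below 0 in TECs and in PMNs (60.3%), against 27.2% of 8954 genes. Most members were below 0 in either cell type taken alone, which raises this count, and agreement gene by gene was not tested. A further 6 were above 0 in both, 12 were below 0 only in TECs and 9 only in PMNs. Mrpl50 was the lowest p of the members in TECs, and in PMNs it was at 70.9, 49.0 and 0.234 CPM after vehicle and 0, 17.8 and 16.3 CPM after glutamine, where the groups overlapped.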

How the data were processed

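For both cell types the authors deposited a table of Salmon's estimated counts by gene symbol, without normalization. The submitters' processing notes name Trim Galore 0.6.4, Salmon 1.0.0, DESeq2 and mm10. The labels give single-end reads of 50 bases from polyA-primed cDNA for all samples, although the TEC and PMN libraries are named in different ways, and their strand is not given in the sources used here, so reads of overlapping genes may be mixed. The deposited PMN table had been altered by a spreadsheet (3.2% of cells with extra points, 0.391% turned into dates) and was decoded; its unit is thus other than plain counts as planned. It has 2 columns per library, whose meaning is not given in the sources used here, and these were averaged (within-library r of log2 values 0.9953 to 0.9957). No column was left unused. Counts were rounded, scaled by TMM, filtered with filterByExpr and tested per cell type with the quasi-likelihood test of edgeR 4.0.16 under R 4.3.3, with Benjamini-Hochberg adjustment. DESeq2 1.42.0, limma 3.58.1 (voom), other scalings, filters and fits without each library were alternatives. The tests were tested on simulated data, the outcome of which is not given here.

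CPM used TMM-scaled library sizes. Positions and lengths (median of basic protein-coding transcripts) came from GENCODE M21 on GRCm38. Members with an unadjusted p below 0.05 (at most 12), extremes of fold change and level, Mrps18a, Mrps18b, Mrps18c, Mrps30 and Mrps36, and the leading genes of each list were named. The members and lists were chosen with earlier results of these data known. With 3 libraries a group, no exact permutation p below 0.1 is possible, and summed shares were given without a test.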

Additional observations from a re-analysis of the deposited data

How the results depend on the processing

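Of 216 recomputed main values, 193 stayed close and 23 moved. A change of sign was counted as a reversal only where the main value exceeded the spread between libraries, and none met this. Smaller values could change sign uncounted. The large-to-small log2 ratio in PMNs, glutamine minus vehicle, ran from -0.14 to 0.26 when a library was left out, so its sign is not settled. In TECs the count of genes with an adjusted p below 0.05 was 0 by edgeR as reported, 425 without an expression filter and 308 with DESeq2, with 1 member among them in either case, and 0 to 36 when a library was left out, the 36 without glutamine replicate 2. The lower members at an unadjusted p below 0.05 numbered 4 to 18, the large-subunit median was -0.47 to -0.24, and the small-subunit median -0.27 to -0.13 when a library was left out. Scaling by TMM without predicted, Rik and receptor genes moved the median of all genes to 0.06. It left 57 members (73.1%) below 0, against 45.5% of all genes, and 9 in place of 13 lower at an unadjusted p below 0.05. With those genes out of the total, the log2 ratio of the summed share was -0.24 in place of -0.39. In PMNs DESeq2 called 239 genes, 1 of them a member. At an unadjusted p below 0.05 it gave 3 lower members, limma-voom 2, and the filter of at least 10 counts in every library 1. With that filter 28 of 35 members were below 0, against 50.8% of all genes. Leaving out a library gave 0 to 1 lower members at an unadjusted p below 0.05 and a small-subunit median of -0.58 to -0.17. Mrpl50 in TECs (-1.02 and -0.99, adjusted p 0.0202 and 0.0341) passed without a filter and with DESeq2, and Mrpl9 in PMNs (5.30, adjusted p 0.000266) with DESeq2; the cause was not tested. Some uncalled named members changed sign, besides Mrpl11, Mrpl12 and Mrpl46 in TECs. With a library left out, the TEC ranges were -0.23 to 0.10 for Mrps18a (highest without vehicle replicate 3), -0.80 to 0.55 for Mrps18b (without vehicle replicate 5), -0.23 to 0.04 for Mrps36 (without glutamine replicate 1) and -0.004 to 0.63 for Mrps6 (lowest without vehicle replicate 5), and limma-voom gave 0.11 for Mrps18b. The PMN ranges were -0.67 to 0.07 for Mrpl33, -1.55 to 0.10 for Mrps18c (both highest without glutamine replicate 3), -1.43 to 0.03 for Mrps18a (without glutamine replicate 1), -12.27 to 0.09 for Mrps18b (without vehicle replicate 2) and -11.54 to 1.96 for Mrps30 (without vehicle replicate 3). No paired analysis was possible because number 3 alone is common to the TEC groups and the labels number no PMN library. The PMN libraries held more counts than those of TECs but detected fewer genes (12020 to 13794 against 19294 to 22225), and the median coefficient of variation of members within groups was 0.721, which limits what a difference of means can show; the cause was not tested.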
